A study of Mus musculus with 8 samples.

Results

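Tdpoz1, Tdpoz2, Tdpoz3, Tdpoz4 and Tdpoz5 are 5 mouse genes that encode proteins with a TRAF domain (also called MATH) followed by a POZ domain (also called BTB). They were taken by symbol from a deposited expression table, all 5 were found in it among 34976 symbols, and all 5 passed the filter on low values. RNA was measured at the late 2-cell stage in embryos of the outbred CF-1 stock, injected when they were early 1-cell embryos. The control group (Scr-MO) received a scrambled control morpholino and the other group (Med13-MO) a morpholino against Med13, directed at its transcription start site per the labels. Each group had 4 libraries, each from a pool of 40 embryos, and no allele or other treatment was named for either group. A morpholino is an antisense oligomer that blocks translation or splicing of the RNA it binds, so the target mRNA can stay in place. The study asks about the part of MED13, which belongs to the kinase module of Mediator, in zygotic genome activation.

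A TRAF domain followed by a POZ domain is also the layout of SPOP, a substrate adaptor of cullin-3 ubiquitin ligases, in which the first domain binds the substrate and the second the cullin. Tdpoz transcripts are known from oocytes and early embryos, and mouse embryos express many gene families in a short burst at the 2-cell stage. The labels say nothing of what TDPOZ proteins do there.

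The 5 genes lie within 310 kb of mouse chromosome 3 (GRCm38, GENCODE M21). Tdpoz2 (ENSMUSG00000103362.1) spans 93651542 to 93652686 and Tdpoz1 (ENSMUSG00000094084.2) 93669333 to 93676310, both on the minus strand. Tdpoz4 (ENSMUSG00000060256.1) spans 93796398 to 93797510 and Tdpoz3 (ENSMUSG00000058005.3) 93826020 to 93827117, both on the plus strand. Tdpoz5 (ENSMUSG00000094163.1) spans 93960292 to 93961314 on the minus strand. Tdpoz2, Tdpoz3, Tdpoz4 and Tdpoz5 each have 1 transcript model with 1 exon, of 1145, 1098, 1113 and 1023 bases. Tdpoz1 has a model of 1 exon (2237 bases) and a model of 2 exons (2322 bases) that share 2206 exonic bases. No other annotated gene overlaps any of the 5.

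Their coding sequences are related but not the same. Over the 10 pairs, nucleotide identity ran from 77.3% (Tdpoz3 and Tdpoz4) to 88.04% (Tdpoz1 and Tdpoz3), and Tdpoz4 was the most distant member, at 77.3% to 79.5% from each of the others. Of 1020 coding positions aligned without a gap in all 5, 652 (63.9%) were the same in every member. The first 60 coding bases, from the start codon, are shown because they differ at 22 positions, the median over all 961 ungapped stretches of that length. Capitals mark the positions at which the 5 members are not all the same. The stretches lie on chromosome 3 at 93671416 to 93671475 (Tdpoz1, minus), 93652604 to 93652663 (Tdpoz2, minus), 93826020 to 93826079 (Tdpoz3, plus), 93796398 to 93796457 (Tdpoz4, plus) and 93961255 to 93961314 (Tdpoz5, minus).
Tdpoz1: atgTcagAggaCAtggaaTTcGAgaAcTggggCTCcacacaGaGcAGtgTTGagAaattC
Tdpoz2: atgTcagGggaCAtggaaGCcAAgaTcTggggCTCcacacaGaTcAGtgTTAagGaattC
Tdpoz3: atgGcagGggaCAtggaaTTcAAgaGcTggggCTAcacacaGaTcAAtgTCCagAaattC
Tdpoz4: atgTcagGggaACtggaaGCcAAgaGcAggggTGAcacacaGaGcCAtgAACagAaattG
Tdpoz5: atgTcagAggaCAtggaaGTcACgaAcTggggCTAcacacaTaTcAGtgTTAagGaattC

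The start regions of the members were read from a RefSeq table (GRCm38.p6) of windows from 250 bases before to 50 bases after each annotated start. It matched 3 of the 5 members, and not Tdpoz2 and Tdpoz3. The window of Tdpoz1 is chr3:93676234-93676533 (minus strand), that of Tdpoz4 chr3:93796148-93796447 (plus strand) and that of Tdpoz5 chr3:93961265-93961564 (minus strand). All 3 are shown, of which Tdpoz1 and Tdpoz5 rose and Tdpoz4 did not pass the test. Tdpoz3, which rose the most, has no window here, so no contrast is drawn. Capitals mark matches to the motifs listed after them.
Tdpoz1: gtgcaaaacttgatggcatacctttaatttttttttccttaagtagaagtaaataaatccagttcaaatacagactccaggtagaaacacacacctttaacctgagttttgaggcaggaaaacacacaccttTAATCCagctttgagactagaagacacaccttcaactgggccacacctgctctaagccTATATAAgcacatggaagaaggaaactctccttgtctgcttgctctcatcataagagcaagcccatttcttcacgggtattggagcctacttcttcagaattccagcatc
Tdpoz4: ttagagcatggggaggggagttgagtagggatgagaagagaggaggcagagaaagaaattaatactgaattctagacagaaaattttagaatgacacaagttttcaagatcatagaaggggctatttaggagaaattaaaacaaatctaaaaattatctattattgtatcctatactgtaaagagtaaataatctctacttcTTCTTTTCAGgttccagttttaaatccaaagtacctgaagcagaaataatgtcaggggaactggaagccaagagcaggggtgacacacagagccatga
Tdpoz5: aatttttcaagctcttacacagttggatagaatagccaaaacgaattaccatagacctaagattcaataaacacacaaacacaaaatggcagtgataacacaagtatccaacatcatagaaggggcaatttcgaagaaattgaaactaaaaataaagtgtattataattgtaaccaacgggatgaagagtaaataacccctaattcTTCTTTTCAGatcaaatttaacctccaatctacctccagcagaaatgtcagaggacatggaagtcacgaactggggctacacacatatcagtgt

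For Tdpoz4 and Tdpoz5 the annotated start is the start codon itself, so their windows need not hold the promoter. The window of Tdpoz1 resembled that of Tdpoz9, a further family member named by RefSeq (272 aligned bases, 100% identity). It also resembled a window of Tdpoz8 that begins at 93068573 (257 bases, 89.1%). The window of Tdpoz4 resembled another window of Tdpoz8, which begins at 93073271 (293 bases, 96.2%). The window of Tdpoz5 resembled that of Tdpoz7 (300 bases, 99.7%), and those of Tdpoz4 and Tdpoz5 resembled each other over 211 bases (76.8%). The motifs were searched on both strands. They included the TATA box, as TATAAA, and the core bound by OBOX and OTX homeodomain proteins, as the letters GGATTA. The nuclear receptor NR5A2 was represented by TCAAGGNCA, and DUX by its motif. TATATAA and a pyrimidine run ending in CAG, the capitals in Tdpoz4 and Tdpoz5, were added after the sequences had been seen. Tdpoz1 held TATATAA from position -60 to the RefSeq start, which is -33 to the GENCODE start, and 3.24% of 32851 windows hold it on either strand. Tdpoz1 also held GGATTA on the opposite strand at -118, as do 7.06% of windows on either strand. Tdpoz4 and Tdpoz5 each held the pyrimidine run on the gene strand, ending 38 and 34 bases before the start codon. Of all windows 0.0974% hold it on that strand and 0.231% on either strand. Because TATATAA and this run were chosen after the sequences had been seen, nothing is read from their shares. The letters of TATAAA (13.6% of windows), TCAAGGNCA (1.62%) and the DUX motif (0.0335%) were in none of the 3 windows.

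How far a read can name its gene was measured on the transcripts. Each was divided into every run of 50 bases, and each run was looked for on both strands in all GENCODE M21 transcripts. Neither the read length nor the treatment of reads with several matches is given in the sources used here. The members shared few runs with each other, at most 3.59% of the runs of any transcript (Tdpoz5). They shared many with other genes of the same stretch of chromosome, most of them known by Gm numbers. Tdpoz5 had no run of its own: 100% of its 974 runs were found in Gm10697, which RefSeq names Tdpoz7. It also shared 63.4% with Gm37596 and 33.9% with Gm5543. Tdpoz3 had 355 of 1049 runs (33.8%) to itself and shared 66.2% with the pseudogene Gm4982. Tdpoz2 kept 51.7% to itself and shared 38.7% with Gm5773 and 37.8% with the pseudogene Gm9141. Tdpoz4 kept 58.8% and shared 31.02% with the pseudogene Gm5541 and 23.4% with Gm4858 (RefSeq: Tdpoz8). The rows of Tdpoz1 kept 58.5% and 54.9% and shared 40.9% and 44.5% with Gm9117. They also shared 39.2% and 40.7% with Gm9125 (RefSeq: Tdpoz9). With runs of 100 bases the shares found in no other gene were 78.1% and 75.8% for the Tdpoz1 rows and 77.9% for Tdpoz2. They were 53.3% for Tdpoz3, 88.4% for Tdpoz4 and 0% for Tdpoz5. The value of each member may therefore hold reads of the copies named here, and the value of Tdpoz5 cannot be told apart from that of Gm10697.

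**Figure D1:**
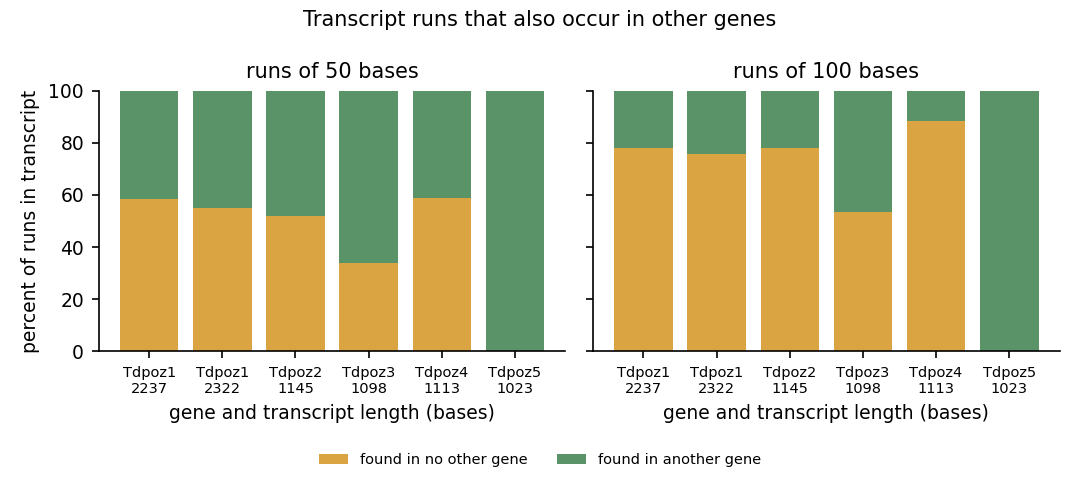
Bars give, for each transcript row of the 5 genes, the percent of runs of 50 bases (left) and 100 bases (right) found in no other gene or in another gene of GENCODE M21; the lower axis gives gene and transcript length in bases. Tdpoz5 holds no run of its own at either length, and Tdpoz3 the next smallest share (33.8% and 53.3%).

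Levels were deposited as FPKM, fragment counts scaled to transcript length and library size. Read back from the values, the members rested on 282 to 2272.5 fragments per row and library, in libraries of 31400000 to 48100000 fragments. All 48 member values (6 rows in 8 libraries) came out as multiples of 0.5 fragments, within 0.05 fragments. The embryos in all 8 libraries carried their own markers: the summed FPKM of 7 oocyte and 2-cell markers ran from 553 to 686 in Scr-MO and from 647 to 816 in Med13-MO. Dppa3 alone held 471 to 595 FPKM in Scr-MO and 368 to 647 in Med13-MO, so the sums say little of the rest. Dppa3 was not called, and 6 of the 7 were called higher, beside 9.29% of all genes tested. Markers of other cells were low. The sums ran from 10.4 to 16.7 for 8 cumulus and granulosa markers (1 of them tested), from 0.123 to 0.911 for 4 sperm markers found in the table (0 tested), and from 1.32 to 3.79 for 5 blood markers (1 tested). For 5 oviduct markers the sums ran from 24.1 to 35.5, of which 2 were tested and 1 was lower. No defining marker of these lists was at 0 in all libraries, and their part in the results was not tested. The level of Med13 itself was 41.3 ± 4.31 FPKM in Scr-MO and 42.2 ± 2.14 in Med13-MO (SD, n = 4 each; difference 0.03 on the log2 scale, two-sided exact permutation p = 0.6286 over 70 assignments). MED13 protein was not measured here. Scr-MO replicate 2 stood apart on the second principal component (23.8% of the variance), with 20.8% of its summed FPKM in its 10 most abundant genes against 13% to 17.5% elsewhere.

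Tdpoz3, Tdpoz1 and Tdpoz5 rose after the Med13 morpholino, and all 5 members had a higher mean in Med13-MO. Tdpoz3 rose the most, and Tdpoz2 and Tdpoz4 did not pass the test. limma was fitted to log2(FPKM + 1) of the 11755 genes whose mean FPKM reached 1, and a gene was called at a Benjamini-Hochberg adjusted p below 0.05. By that rule 3 of 5 members were higher and 0 lower, where 17.1% of all genes tested were called, 9.29% higher and 7.81% lower. The same 3 had all 4 Med13-MO libraries above all 4 Scr-MO libraries, as did 10.4% of all genes tested. The members' median log2 difference was 0.95, against -0.06 over all genes tested. A log2 difference of FPKM + 1 understates the change of low genes. In pools of whole embryos, a higher level in each embryo and a larger share of embryos with the transcript cannot be told apart.

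Tdpoz3 stood at 15.7, 7.2, 5.35 and 8.62 FPKM in Scr-MO replicates 1 to 4. In Med13-MO replicates 1 to 4 it stood at 54.8, 33.6, 32.2 and 23.8 FPKM. Every Med13-MO library lay above every Scr-MO library, with the first replicate the highest of each group. The means were 9.21 ± 4.51 and 36.1 ± 13.2 FPKM (SD, n = 4 each), a ratio of 3.92. On the log2 scale the difference was 1.89 ± 0.30 (SE), with a 95% interval of 1.25 to 2.53 and a limma adjusted p of 0.00167. It ranked 32nd among the rises of all genes tested. Gm4982, the pseudogene that shares most of its runs, had 2.69 ± 1.08 and 11.1 ± 3.59 FPKM (SD, n = 4 each), with a log2 difference of 1.71 (limma adjusted p = 0.00118).

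Tdpoz1 stood at 29.5, 27.3, 16.9 and 23.4 FPKM in the Scr-MO libraries, as the sum of its transcript rows. In the Med13-MO libraries it stood at 50.6, 47.04, 52.8 and 38.6 FPKM. The groups did not overlap, and the lowest library of each group, Scr-MO replicate 3 and Med13-MO replicate 4, were also the lowest for every other member. The means were 24.3 ± 5.51 and 47.3 ± 6.26 FPKM (SD, n = 4 each), with a log2 difference of 0.95 ± 0.19 (SE), a 95% interval of 0.54 to 1.36 and a limma adjusted p of 0.00644. Because both rows cover nearly the same exons, a fragment may be counted in each. The row with the highest mean alone gave 12.1 ± 2.57 and 23.7 ± 3.11 FPKM.

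Tdpoz5 stood at 13.9, 14.0, 9.62 and 12.2 FPKM in the Scr-MO libraries. In the Med13-MO libraries it stood at 25.05, 25.9, 30.2 and 21.8 FPKM. The groups did not overlap. The means were 12.4 ± 2.04 and 25.7 ± 3.45 FPKM (SD, n = 4 each), with a log2 difference of 1.00 ± 0.17 (SE), a 95% interval of 0.63 to 1.36 and a limma adjusted p of 0.00265. Its copy Gm10697 had nearly the same values, 12.7 ± 3.03 and 25.3 ± 2.86 FPKM (SD, n = 4 each), with a log2 difference of 0.96 (limma adjusted p = 0.00522). Gm37596, which holds 63.4% of the Tdpoz5 runs of 50 bases, had 6.44 ± 0.492 and 9.50 ± 2.06 FPKM (SD, n = 4 each). The log2 difference of Gm37596 was 0.47 and did not pass (limma adjusted p = 0.0766). Gm5543, which holds 33.9% of the Tdpoz5 runs, was called higher and is given below.

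Tdpoz4 stood at 12.1, 13.2, 7.89 and 9.70 FPKM in the Scr-MO libraries. In the Med13-MO libraries it stood at 19.7, 15.3, 19.8 and 10.2 FPKM. Replicates 1 to 3 of Med13-MO lay above every Scr-MO library, and replicate 4 lay among them. The means were 10.7 ± 2.40 and 16.3 ± 4.53 FPKM (SD, n = 4 each). The log2 difference of 0.54 ± 0.22 (SE; 95% interval 0.06 to 1.02) did not pass after adjustment (limma adjusted p = 0.115).

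Tdpoz2 stood at 17.9, 16.3, 16.01 and 23.0 FPKM in the Scr-MO libraries. In the Med13-MO libraries it stood at 28.6, 26.7, 26.8 and 16.6 FPKM. Here too replicates 1 to 3 of Med13-MO lay above every Scr-MO library, and replicate 4 fell among them. The means were 18.3 ± 3.24 and 24.7 ± 5.45 FPKM (SD, n = 4 each). The log2 difference of 0.40 ± 0.20 (SE; 95% interval -0.03 to 0.82) did not pass (limma adjusted p = 0.181). Without Med13-MO replicate 4 both genes passed, Tdpoz4 with a log2 difference of 0.73 (adjusted p = 0.025) and Tdpoz2 with 0.57 (0.0387).

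**Figure D2:**
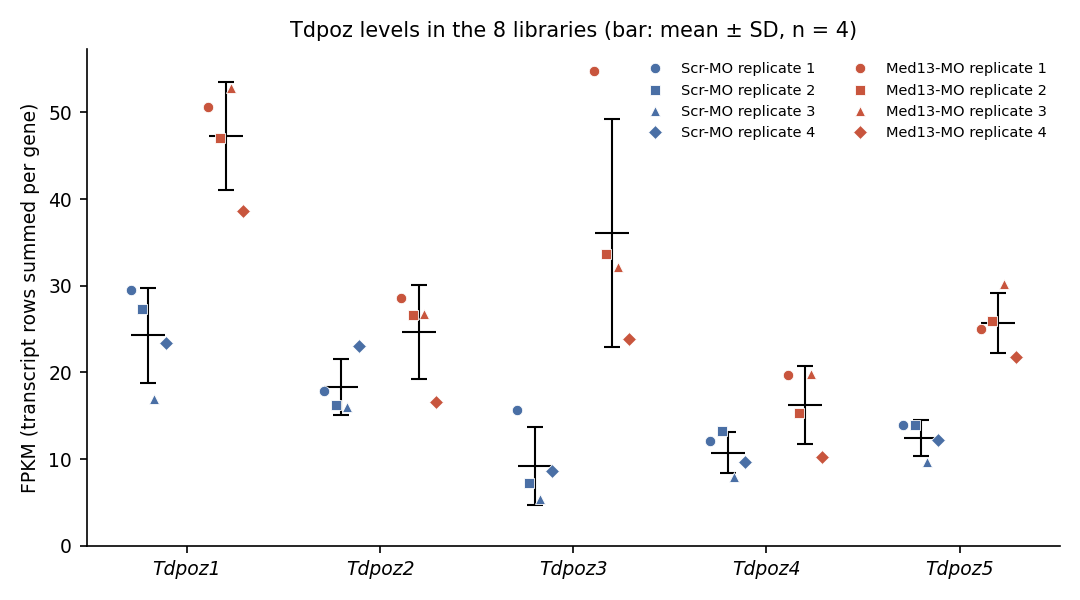
Points give FPKM (transcript rows summed per gene) of each Tdpoz gene in the 4 Scr-MO libraries (blue) and the 4 Med13-MO libraries (red), with a marker shape per replicate; black bars are the mean ± SD. The groups are apart for Tdpoz1, Tdpoz3 and Tdpoz5 and overlap for Tdpoz2 and Tdpoz4, where Med13-MO replicate 4 (16.6 and 10.2 FPKM) lies among the Scr-MO libraries.

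**Figure D3:**
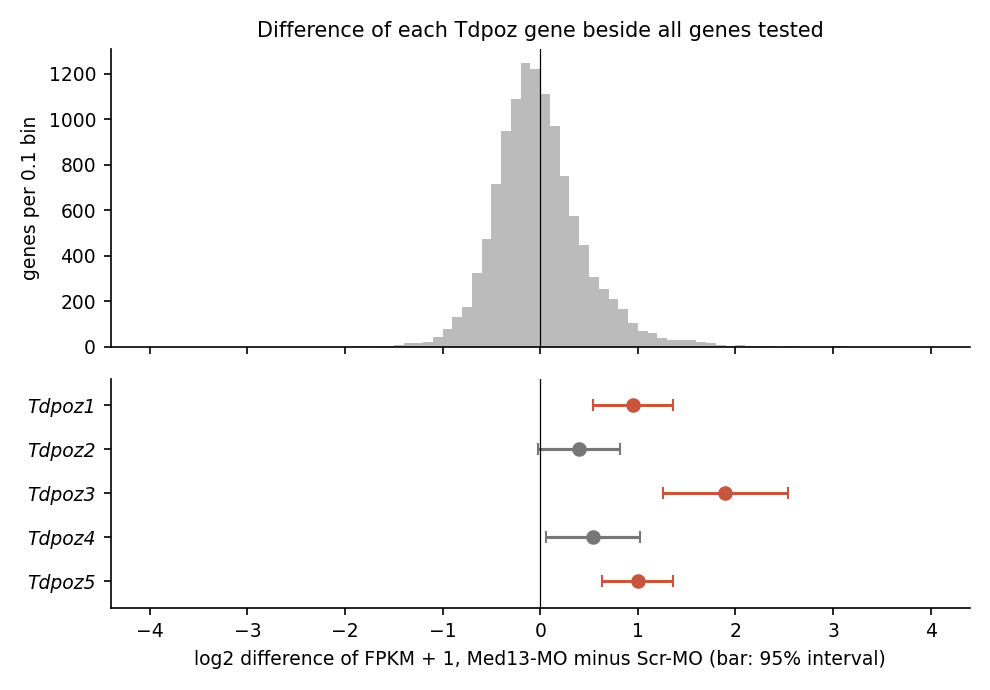
The upper panel is a histogram of the log2 difference of FPKM + 1 (Med13-MO minus Scr-MO) of 11755 genes, and the lower panel gives the difference of each Tdpoz gene with its 95% interval, red where the adjusted p is below 0.05. Tdpoz3 (1.89) lies far into the upper tail, Tdpoz1 and Tdpoz5 near 1, and the interval of Tdpoz2 reaches -0.03.

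The same libraries were the lowest for every member. Scr-MO replicate 3 was the lowest of its group for 5 of 5 members, and Med13-MO replicate 4 was the lowest of its group for 5 of 5. With 1 row per gene (the one with the highest mean, so that Tdpoz1 counts once), the family held 74.2, 63.9, 47.5 and 65.3 FPKM in Scr-MO replicates 1 to 4. It held 153, 126, 135 and 91.7 FPKM in Med13-MO replicates 1 to 4, so the lowest Med13-MO library lay above the highest Scr-MO library. The group means of this sum were 62.7 ± 11.1 and 126 ± 25.9 FPKM (SD, n = 4 each), given without a test because the members were chosen with earlier results known. The p-values given for single members and for pairs of members carry the same limit.

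The order of the members changed between the groups. In Scr-MO, Tdpoz2 had the highest FPKM of the 5 in all 4 libraries and made up 29.6 ± 5.64% of the family (SD, n = 4), and Tdpoz3 was the lowest in replicates 2, 3 and 4. The group means of Tdpoz5 (12.4), Tdpoz1 (12.1 for 1 row), Tdpoz4 (10.7) and Tdpoz3 (9.21 FPKM) lay within 1 SD of their neighbours in that order. In Med13-MO, Tdpoz3 was the highest in all 4 libraries and Tdpoz4 the lowest in all 4. The share of Tdpoz3 went from 14.2 ± 4.70% of the family in Scr-MO to 28.1 ± 5.27% in Med13-MO (SD, n = 4 each), that of Tdpoz2 from 29.6% to 19.4 ± 1.38%, and that of Tdpoz4 from 17.1 ± 2.52% to 12.7 ± 1.47%. The shares of Tdpoz1 (19.1 ± 1.28% and 19.0 ± 1.91%) and Tdpoz5 (19.9 ± 1.49% and 20.8 ± 3.21%) differed by less than the spread between libraries. Tdpoz5, Tdpoz2 and Tdpoz1, at 25.7, 24.7 and 23.7 FPKM, were within 1 SD of each other in Med13-MO.

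Whether members differed in their change was tested within libraries. For each of 10 pairs, the log2 ratio of FPKM + 1 of the members was compared between the groups by a two-sided exact permutation test over 70 assignments, whose smallest possible p is 0.0286. In 7 pairs the test reached that smallest p, which is 0.0409 after Benjamini-Hochberg adjustment over the 10 pairs. The adjusted value rests on this tie at the smallest p. The pairs share genes and libraries, so the 7 are not separate results. How often pairs of other genes reach the smallest p was not measured. The log2 ratio of Tdpoz2 to Tdpoz3 fell by 1.5, and that of Tdpoz1 to Tdpoz3 fell by 0.94, while Tdpoz3 to Tdpoz4 was higher by 1.36. The ratio of Tdpoz1 was higher by 0.55 to Tdpoz2 and by 0.41 to Tdpoz4. The ratio to Tdpoz5 fell by 0.60 for Tdpoz2 and fell by 0.46 for Tdpoz4. The other 3 pairs missed the threshold: Tdpoz3 and Tdpoz5 (0.90, exact p = 0.0857, adjusted 0.107), Tdpoz1 and Tdpoz5 (-0.05, exact p = 0.514) and Tdpoz2 and Tdpoz4 (-0.14, exact p = 0.486). Reads shared with other genes enter these ratios too, and their part was not tested.

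**Figure D4:**
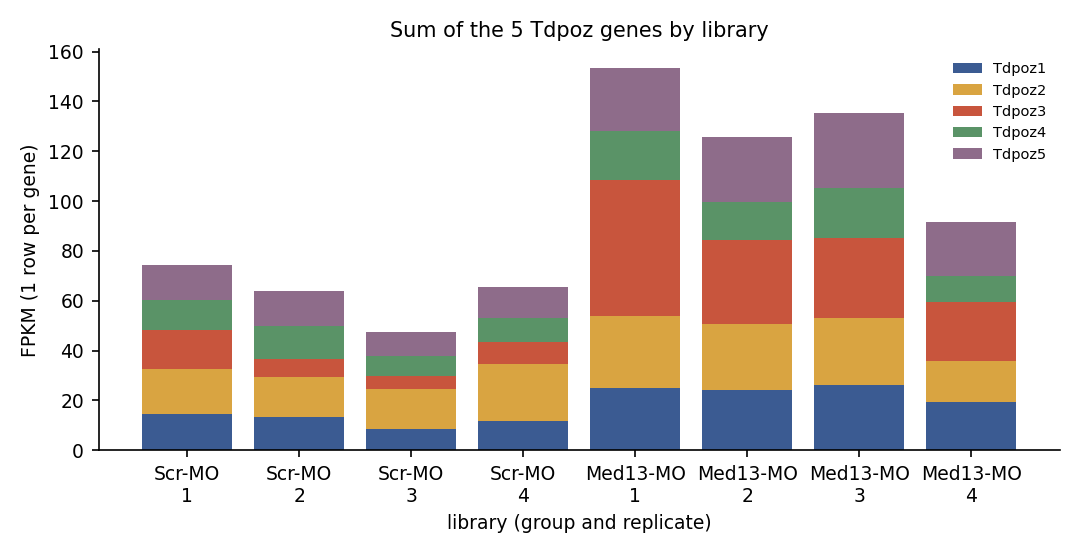
Stacked bars give the summed FPKM of the 5 Tdpoz genes in each library, with 1 transcript row per gene. The Med13-MO libraries reach 91.7 to 153 FPKM against 47.5 to 74.2 in Scr-MO, and the Tdpoz3 layer is the widest in every Med13-MO library.

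RefSeq (GRCm38.p6) names 3 further Tdpoz genes, which the table lists under older names. All 3 were called higher, beside 9.29% of all genes tested. They share runs of 50 bases with members, as given above, so they are not separate evidence of the same change. Tdpoz7 and Tdpoz9 also count among the relatives within 500 kb described below. Tdpoz7 is Gm10697, given above. Tdpoz9 (Gm9125) had 22.6 ± 8.84 and 53.9 ± 9.10 FPKM (SD, n = 4 each), with a log2 difference of 1.28 (limma adjusted p = 0.00558). Tdpoz8 (Gm4858, chromosome 3, 93068823 to 93075505) stood at 18.3 ± 7.95 and 41.4 ± 13.7 FPKM (log2 difference 1.17, limma adjusted p = 0.0312), and its groups overlapped.

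The members sit among many relatives. Within 500 kb of their span GENCODE M21 annotates 18 other genes that share a run of 50 bases with a member, 11 pseudogenes and 7 coding genes, and all 18 were abundant enough to be tested. Of these, 11 of 18 were called higher and 0 lower, beside 9.29% and 7.81% of all genes tested, with log2 differences of 0.31 to 1.71 and a median of 0.97. Since they share sequence with the members they are not separate evidence of the same change. Apart from the 5 members, the 5 most abundant genes of the window were Gm5286, Gm10696, Gm9125, Gm9117 and Gm5543. Gm5286 went from 41.2 ± 7.42 to 90.9 ± 19.3 FPKM (limma adjusted p = 0.00394), Gm9117 from 21.9 ± 8.78 to 50.8 ± 8.61 (0.00635) and Gm5543 from 19.05 ± 3.57 to 32.9 ± 4.62 (0.013; SD, n = 4 each). Gm10696 stood at 52.7 ± 21.9 and 75.7 ± 24.7 FPKM and did not pass (adjusted p = 0.233). Among the 55 annotated genes that share no such run, 12 were tested, and 5 of those were higher and 0 lower. In 4 of the 5 the Scr-MO mean was below 1 FPKM, so they passed the filter on low values only through Med13-MO and had to be higher there, and nothing is read from this count. Over all 12 tested genes that share no such run, log2 differences ran from -0.30 to 1.75. The coding genes Tdrkh, Oaz3 and Mrpl9, at one edge of the window, did not pass, with differences of -0.15, -0.10 and -0.08. Nearer the members, the coding gene Them4 went from 5.46 ± 1.32 to 8.22 ± 2.19 FPKM (SD, n = 4 each). Its log2 difference of 0.50 did not pass either (limma adjusted p = 0.110).

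**Figure D5:**
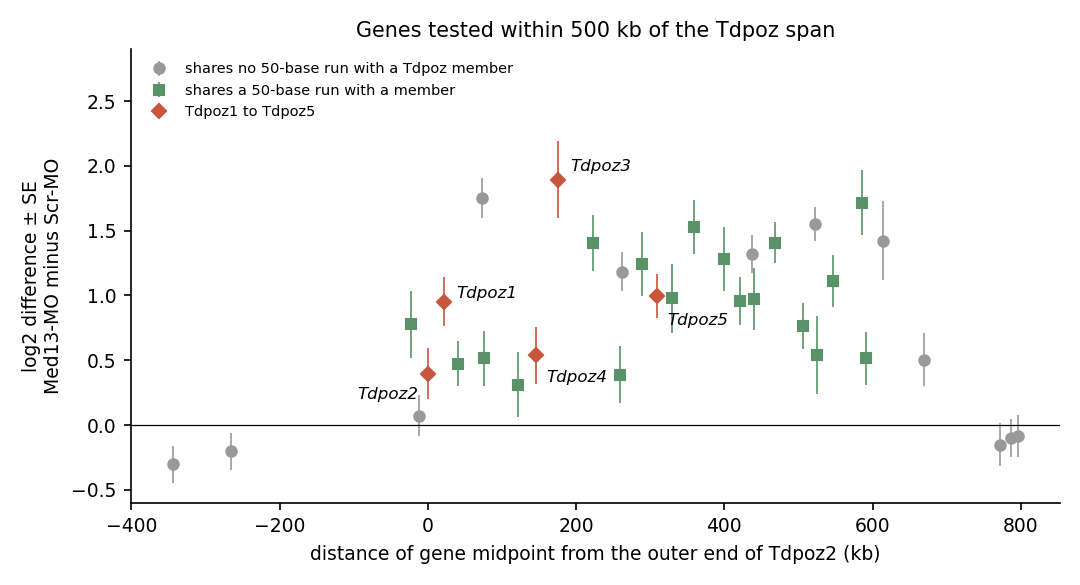
Points give the log2 difference of FPKM + 1 (Med13-MO minus Scr-MO, ± SE) of each gene tested within 500 kb of the Tdpoz span, against the distance of its midpoint from the outer end of Tdpoz2 in kb. Members (red) and genes that share a 50-base run with them (green) all lie above 0, from 0.31 to 1.89, while genes that share none (grey) run from -0.30 to 1.75.

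Other genes listed for the 2-cell stage were called higher more often than lower. Of 63 listed, 54 were tested, 20 rose and 1 (Eif1a) fell, with a median log2 difference of 0.62. Zfp352, Zscan4c, Zscan4d and Tcstv3 of this list are also among the 7 oocyte and 2-cell markers given above, so those counts overlap. Chaf1a, Chaf1b and Nelfa of this list are also counted among the genes that act on the 2-cell program, given below. Of all genes tested, 9.29% were called higher and 7.81% lower, with a median of -0.06. Zfp352, a zinc finger gene, went from 38.7 ± 10.9 to 123 ± 26.3 FPKM (SD, n = 4 each; adjusted p by limma 0.00101) and B020031M17Rik from 14.7 ± 6.65 to 60.6 ± 23.8 (0.00276). Sp110 (388 ± 78.1 and 407 ± 74.2 FPKM) and the splicing gene Rbm25 (161 ± 5.42 and 203 ± 28.5), the most abundant of the list, did not pass. Many genes of this list belong to families of near-identical copies as well. The summed Tdpoz level, here over all rows and so with both Tdpoz1 rows, was compared with other genes over the 8 libraries. The genes closest in pattern were found by the root mean square difference of centred log2(FPKM + 1), which had a median of 0.65 over 11750 genes. They were Gm5286 (0.084) of the same cluster, Pramef8 (0.108), Gm9476 (0.123), Tmem92 (0.125), Klhl6 (0.131) and Smc1b (0.139). Gm9476 had means of 0.547 FPKM in Scr-MO and 1.66 in Med13-MO. It passed the filter on low values only through Med13-MO and had to be higher there, so nothing is read from its place. Pramef8 went from 3.24 ± 0.789 to 7.10 ± 0.815 FPKM and Tmem92 from 58.7 ± 11.5 to 129 ± 22.7 FPKM (SD, n = 4 each), given without a test since the likeness chose them.

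Among genes that act on the 2-cell program, as activators or repressors, 31 were tested, 3 rose and 6 fell, with a median log2 difference of -0.19. The share that rose was near the 9.29% called higher of all genes tested, of which 7.81% were called lower. Dppa2, an activator of 2-cell genes, went from 84.1 ± 15.7 to 44.6 ± 6.46 FPKM (SD, n = 4 each; adjusted p by limma 0.0059). Smarca5, a chromatin remodelling ATPase, went from 139 ± 12.6 to 69.0 ± 18.2 FPKM (0.00447), and Fam208a, which encodes the silencing factor TASOR, from 17.6 ± 1.3 to 4.23 ± 0.755 (3.51e-05). Smchd1, a chromosomal silencing protein, rose from 10.2 ± 1.70 to 18.3 ± 1.23 FPKM (0.0063). Dppa3, the most abundant of the list, stood at 557 ± 58.2 and 536 ± 119 FPKM.

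Of the ubiquitin ligase genes that work with SPOP and related adaptors, 38 were tested, 2 rose and 3 fell, and their median log2 difference was -0.005. Since 17.1% of all genes tested were called, this count is no result about the list. Klhl13, an adaptor of cullin-3, went from 1.14 ± 0.494 to 5.81 ± 0.847 FPKM (SD, n = 4 each; adjusted p by limma 0.000227) and Btbd2 from 3.58 ± 1.35 to 8.19 ± 1.47 (0.00742). Klhl21, another adaptor, went from 29.7 ± 2.27 to 16.7 ± 4.26 FPKM (0.0147) and Klhl24 from 3.94 ± 0.955 to 2.23 ± 0.142 (0.0259). The cullin Cul3 itself stood at 269 ± 40.8 and 244 ± 33.8 FPKM, and the exchange factor Cand1 at 73.2 ± 8.26 and 73.02 ± 9.65 FPKM. Neither passed the test.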

How the data were processed

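The labels' protocols describe 4 independent collections per group, each of 40 embryos, so p-values measure the spread between collections. Amplification (Ovation system) came before TruSeq library preparation. The submitters' processing notes name BWA and mm10, the assembly also called GRCm38. The authors deposited FPKM values, 1 row per Ensembl transcript (97496 rows). The counting tool, annotation release, strand setting and treatment of multiply matching reads are given in none of the sources used here. In 3758 rows, those whose symbol holds a hyphen, values are moved by 1 column; none names a Tdpoz gene, and they were left out. For that reason 1 deposited column, of Scr-MO replicate 1, was recorded with the unit "other", although its remaining rows hold FPKM like the rest.

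Rows were summed per symbol (34976) and those whose mean FPKM reached 1 were kept (11755). limma 3.58.1 in R 4.3.3 was run on log2(FPKM + 1), with a trended prior variance and group as the only term; tests were two-sided, with Benjamini-Hochberg adjustment over all genes. It was tested on simulated data. Library totals came from the most frequent small value of FPKM times transcript length, which was taken as 1 fragment and then refined by least squares. With a tolerance of 0.01 fragments, 94.7% to 94.9% of values up to 20 fragments were multiples of 0.5 fragments. Amplified reads carry no molecular identifiers. Coding sequences were aligned in pairs with Biopython 1.88 and together with MAFFT 7.526.

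Named genes were the 5 members, Med13, other symbols beginning with Tdpoz (none was in the table), the 5 most abundant neighbours within 500 kb, the 6 closest patterns, and of each list the 4 with the smallest adjusted p and the 2 most abundant. RefSeq's Tdpoz7, Tdpoz8 and Tdpoz9, and Eif1a, Chaf1a, Chaf1b, Nelfa, Zscan4c, Zscan4d, Tcstv3, Gm4778, Gm4982, Gm37596, Gm38086, Gm37185, Gm37155, Gm16560, Them4, Tdrkh, Oaz3, Mrpl9, Gm5773, Gm9141 and Gm5541 were named outside that rule. The members and lists were chosen with earlier results of these data known. Alternatives were pseudocounts, filters, scalings, 1 row per gene, sample weights, no trend and each library left out. Those for the member pairs and Med13 were chosen after seeing the data.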

Additional observations from a re-analysis of the deposited data

Results flagged for a closer look

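Among 31 named genes, the highest and lowest library of each group was set against the other 3 by Dixon's criterion (critical value 0.829), in 62 groups. Chance alone would mark about 1 in 20 groups, and 4 met it. Tdpoz2 in Med13-MO had 16.6 FPKM in replicate 4 against 26.7 to 28.6 in the other 3 libraries (gap over range 0.840). Outside the family, Klhl21 had 10.4 FPKM in Med13-MO replicate 1 against 18.3 to 19.3. Cand1 had 61 FPKM in Scr-MO replicate 2 against 76.1 to 79.1, and Dppa3 had 471 FPKM in Scr-MO replicate 4 against 578 to 595.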

How the results depend on the processing

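Tdpoz1, Tdpoz3 and Tdpoz5 kept their direction and their call under all 17 alternatives each, with log2 differences of 0.80 to 1.12, 1.68 to 2.16 and 0.89 to 1.15 and limma adjusted p up to 0.032, 0.0194 and 0.0137. Tdpoz2 and Tdpoz4 stayed above 0 and passed in 2 of 17 alternatives each. With sample weights their log2 differences were 0.46 and 0.73 (adjusted p = 0.0356 and 0.00663). Over the fits without 1 library they ran from 0.32 to 0.57 and from 0.41 to 0.73, passing without Med13-MO replicate 4. The log2 ratio of the family sum over all rows, with both Tdpoz1 rows counted, was 1.00. It ran from 0.88 to 1.12 over the alternatives, and was 1.01 with 1 row per gene. The count of pairs that differed was 7 with each of the 3 alternatives run for it; which pairs these were was not compared. The Med13 difference (main 0.03) was -0.0011 (without Scr-MO replicate 3) to 0.10 without 1 library. The count of called genes over all, 2010, was 1012 with no filter, 1137 at a mean FPKM of at least 5, 4336 with sample weights, and 956 to 2404 without 1 library (1113 without Scr-MO replicate 3; 1291, 956 and 1245 without Med13-MO replicates 1, 2 and 3). The cause was not tested. Of those calls 54.3% were higher, against 39.5% with sample weights and 43.7% without Scr-MO replicate 2. No scaling moved the median of all genes by over 0.1. No paired analysis was run, because the labels give each library its own number and name no pairs. The replicate numbers 1 to 4 used here only name libraries.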

Other observations

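Of the genes of the Tdpoz window that share no run of 50 bases with a member, 4 short pseudogenes of 404 to 434 bases were called higher, from Scr-MO means below 1 FPKM. They passed the filter on low values only through Med13-MO, so a higher value there was built into their being tested, and their values are given as a description. They were picked after their values had been seen. Gm38086 (chromosome 3, 93724618 to 93725051) had 0.428 to 1.02 FPKM in Scr-MO and 4.03 to 5.34 in Med13-MO. Gm37185 (93912843 to 93913252) had 0.203 to 0.567 and 1.52 to 2.53 FPKM, and Gm37155 (94088478 to 94088883) 0.0256 to 0.36 and 1.53 to 2.31. Gm16560 (94173080 to 94173483) was listed at 0 in Scr-MO replicate 1 and reached 0.115 FPKM in that group, against 1.66 to 2.59 in Med13-MO. In these 4, unlike in the 5 members, Med13-MO replicate 4 was not the lowest library of its group. The coding gene Gm4778, whose Scr-MO mean was above 1 FPKM, went from 3.40 ± 1.40 to 11.1 ± 4.33 FPKM (SD, n = 4 each; adjusted p by limma 0.0087), with groups that overlapped.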
